A study of Glycine max with 8 samples.

Results

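Thylakoids are the inner membranes of the chloroplast, in which light energy drives electrons from photosystem II through the cytochrome b6f complex to photosystem I. The electron flow pumps protons into the thylakoid lumen, and the chloroplast ATP synthase uses the proton gradient to make ATP. These complexes are built from subunits of both genomes: the plastid encodes most core subunits, while many small, peripheral and regulatory subunits are encoded in the nucleus and imported as proteins.

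The report covers 6 nuclear transcripts of this machinery, from 6 loci, among 77681 transcript entries on a soybean microarray. They are 2 transcripts for PetM, a small membrane subunit of the cytochrome b6f complex (Glyma.07G163600-1 and Glyma.20G008600-1), 2 for PsbP family proteins of the thylakoid lumen (Glyma.03G230300-1 and Glyma.19G227400-1), 1 for ATPC1, the gamma subunit that turns inside the ATP synthase (Glyma.13G204800-2), and 1 for a thylakoid membrane protein with a CAAD domain (Glyma.07G019400-1). All 6 were found by name in the deposited processed table and in the scanner files, and all 6 were among the 55087 transcripts tested. They were picked from transcripts that the study classed as drought-repressed memory transcripts, that is, over 4-fold lower in a first drought and over 4-fold lower again in a second. That choice used the WT1, DR1 and DR2 arrays, so every drought comparison of the 6 is given as a description without a test, and the test is kept for WT2 against WT1.

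Primary leaves of Glycine max cv. Daepoong seedlings, grown for 7 days, were sampled at 4 stages with 2 arrays per stage, 1 from each of 2 independent experiments: leaves of a watered plate (WT1), leaves of a plate without water for 4 days (DR1), leaves of DR1 plants 1 day after re-watering (WT2), and leaves after a second drought of 4 days (DR2). The sample labels give the first drought as 4 hours, whereas the treatment protocol and the methods give 4 days. Several primary leaves were pooled per sample, all plants were of 1 cultivar, and no plate watered throughout was sampled at the age of WT2 or DR2, so leaf age and treatment cannot be told apart in comparisons that involve those stages.

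Between 55.2% and 65.2% of probes were well above background on the 8 arrays, with the lowest shares on the DR2 arrays (57.3% and 55.2%), and no spot was saturated. WT1 and DR1 arrays shared 1 slide and WT2 and DR2 arrays another, so WT2 against WT1 and DR2 against DR1 also compare slides. A call means over 4-fold with a limma adjusted P below 0.05. Over all transcripts, 3.85% were called lower and 3.62% higher at DR1 against WT1, 15.2% lower and 13.1% higher at DR2 against WT2, and 8.45% lower at DR2 against DR1. As a check of the tissue, 13 of 13 chlorophyll a/b-binding entries named in the study's tables were well above background on each WT1, DR1 and WT2 array, and 11 and 10 of them on the DR2 arrays. The 3 entries checked for the RuBisCO small chain were well above background on each WT1, DR1 and WT2 array, and 1 of 3 on each DR2 array. These 3 were dim, with medians of 405 and 637 on the WT1 arrays, against 132078 and 127327 for the chlorophyll a/b-binding entries. The paper names RuBisCO small subunit genes among the brightest in watered leaves, and those were not among the entries checked here. The dim entries therefore give no reading of RuBisCO small chain RNA as a whole at DR2. The seed and nodule markers could not be named on this array, so no check for other tissues was made.

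The 6 transcripts followed 1 course: high in watered leaves, lower after the first drought, higher again after 1 day of water, and lowest after the second drought. At DR2 the PetM pair and the CAAD transcript were well above background on both arrays, Glyma.03G230300-1 on 1, and Glyma.19G227400-1 and Glyma.13G204800-2 on neither. DR1 leaves kept 13.4% to 22.9% of the WT1 level, and WT2 leaves had 58.8% to 101% of it. In DR2 leaves the PetM and CAAD transcripts kept 0.336% to 1.35% of the WT1 level. The plot of intensities by array shows this course for each transcript. In these bulk leaf samples, fewer cells of a type and less RNA per cell cannot be told apart.

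**Figure D1:**
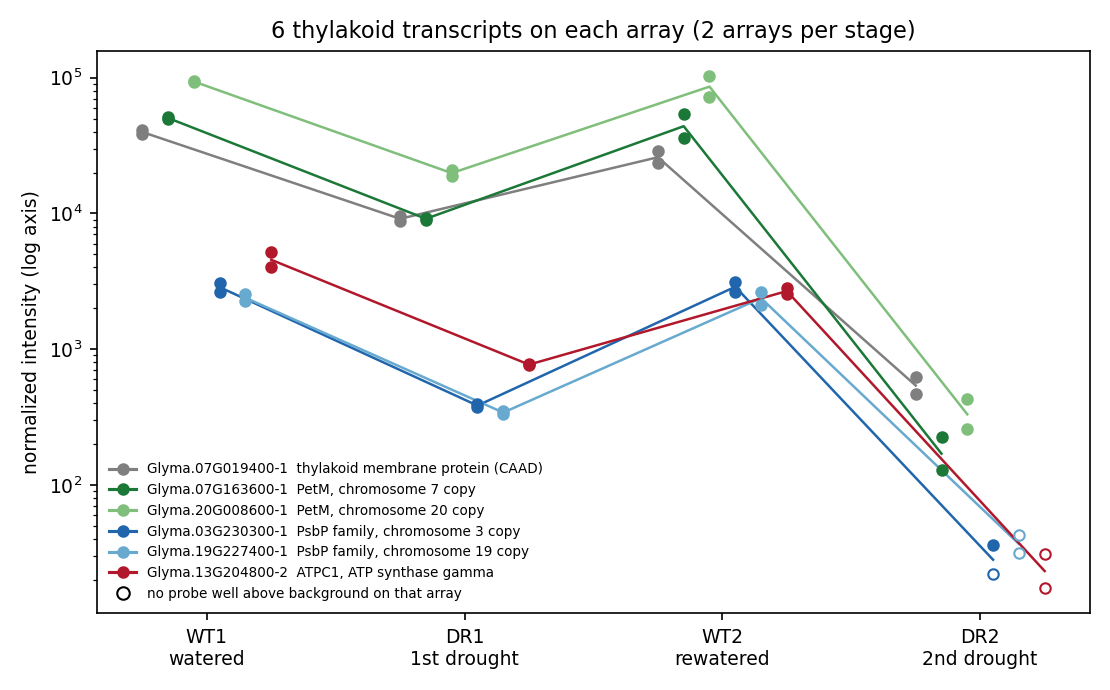
Normalized intensity (log axis) of the 6 transcripts on each of the 8 arrays, by stage; lines join the stage means and open points mark arrays on which no probe was well above background. At each drought stage all 12 points of that stage lie below the points of the same transcript at WT1 and WT2, and 5 of the 12 DR2 points are open.

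PetM is a single-helix subunit that sits at the edge of the cytochrome b6f complex, the step between the 2 photosystems. The PetM transcript of the copy on chromosome 7, Glyma.07G163600-1, had normalized intensities of 51139 and 49808 in WT1 leaves, 9000 and 9266 in DR1 leaves, 35803 and 53870 in WT2 leaves, and 225 and 128 in DR2 leaves. The copy on chromosome 20, Glyma.20G008600-1, read 95235 and 92229 in WT1, 18939 and 20741 in DR1, 72150 and 102414 in WT2, and 428 and 256 in DR2. In both copies the drought arrays were below every watered array, the DR2 arrays were below the DR1 arrays, and the WT2 arrays lay on both sides of the WT1 arrays.

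On the log2 scale, Glyma.07G163600-1 changed by -2.47 (SE 0.31) at DR1 against WT1 and by -8.02 (SE 0.31) at DR2 against WT2, which is 5.53-fold and 259.0-fold lower. Glyma.20G008600-1 changed by -2.24 (SE 0.29) and -8.02 (SE 0.29), or 4.73-fold and 259.9-fold lower. These were the largest falls at the second drought among the 4 transcripts that were still detected on a DR2 array. Against DR1 rather than WT2, DR2 leaves were 53.8-fold lower in the chromosome 7 copy and 59.9-fold lower in the chromosome 20 copy.

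The 2 PetM transcripts moved together on every array. Relative to WT1, the log2 ratio of the chromosome 20 copy over the chromosome 7 copy stayed between 0.03 and 0.27 on the 6 other arrays, and the root mean square distance between their centred profiles over 8 arrays was 0.09, the smallest among the 15 pairs of the 6 transcripts. The probes of both copies end in the 3' part of the transcript, and whether either set also binds RNA of the other copy was not tested.

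PsbP proper is a lumenal protein of the oxygen-evolving complex of photosystem II, and its family includes related proteins of the lumen with roles in assembly. The PsbP family transcript of chromosome 3, Glyma.03G230300-1, read 2647 and 3092 in WT1 leaves, 374 and 393 in DR1 leaves, 2636 and 3148 in WT2 leaves, and 21.9 and 36.0 in DR2 leaves. That of chromosome 19, Glyma.19G227400-1, read 2251 and 2532 in WT1, 333 and 348 in DR1, 2130 and 2646 in WT2, and 42.7 and 31.5 in DR2. In both, the WT2 arrays lay on either side of the WT1 arrays, and the DR2 arrays were near the detection limit.

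At DR1 against WT1 the pair had the largest falls of the 6, with -2.90 (SE 0.27, 7.46-fold lower) for Glyma.03G230300-1 and -2.81 (SE 0.24, 7.01-fold lower) for Glyma.19G227400-1. At DR2, 1 of the 3 probes of Glyma.03G230300-1 was well above background on 1 array, and neither probe of Glyma.19G227400-1 was on either array. A bound on the fall was therefore set by taking for each DR2 array the higher of the measured value and the dimmest signal well above background. For Glyma.03G230300-1, this bound put DR2 leaves at least 95.5-fold lower than WT2 leaves and at least 12.7-fold lower than DR1 leaves. The bound holds for the background offset of 0 alone. With an offset of 50 the change of Glyma.03G230300-1 at DR2 against WT2 was -5.19 on the log2 scale, short of that bound. Glyma.19G227400-1 measured 64.7-fold lower in DR2 leaves than in WT2 leaves and 9.29-fold lower than in DR1 leaves; its DR2 values lay above that dimmest signal, so the rule leaves the measured folds as they are, and they depend on the background correction. With a background offset of 50 its changes were -4.80 and -2.17 on the log2 scale. The second falls of the pair cannot be ranked against the others.

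ATPC1 is the central shaft of the ATP synthase and holds the thiol pair through which light switches the enzyme on. Glyma.13G204800-2 is read by 1 probe, with intensities of 4018 and 5158 in WT1 leaves, 760 and 778 in DR1 leaves, 2813 and 2550 in WT2 leaves, and 30.7 and 17.5 in DR2 leaves. At DR1 against WT1 the change was -2.57 (SE 0.29), or 5.92-fold lower. Its probe was not well above background on either DR2 array, so DR2 leaves were at least 96.5-fold lower than WT2 leaves and at least 27.7-fold lower than DR1 leaves. Both WT2 arrays were below both WT1 arrays, as was so for 27.1% of all transcripts, whereas those of the PetM and PsbP transcripts overlapped.

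CAAD-domain proteins of the thylakoid include, in Arabidopsis, the CURT1 proteins that bend the membrane at the margins of grana. Glyma.07G019400-1 read 40862 and 38744 in WT1 leaves, 8742 and 9527 in DR1 leaves, 23486 and 28665 in WT2 leaves, and 469 and 619 in DR2 leaves. The change was -2.12 (SE 0.23) at DR1 against WT1, or 4.36-fold lower, the closest of the 6 to the 4-fold limit, and -5.59 (SE 0.23) at DR2 against WT2, or 48.1-fold lower. Its 2 probes were well above background on all 8 arrays. As with ATPC1, both WT2 arrays were below both WT1 arrays, which was so for 27.1% of all transcripts.

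**Figure D2:**
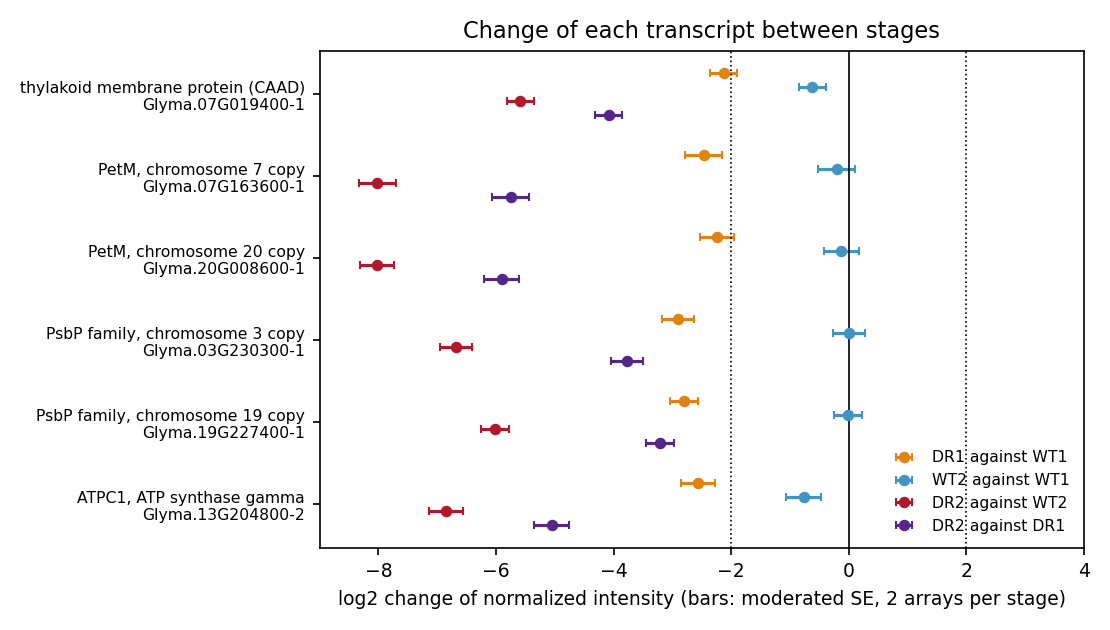
Log2 change of normalized intensity for each of the 6 transcripts in 4 comparisons; points are limma estimates from 2 arrays per stage, bars the moderated SE, and dotted lines the 4-fold limits. The changes lie between -2.12 and -2.90 at DR1 against WT1, between -0.77 and 0.01 at WT2 against WT1, between -5.59 and -8.02 at DR2 against WT2 and between -3.21 and -5.91 at DR2 against DR1; those of Glyma.19G227400-1 and Glyma.13G204800-2 at DR2 are measured values on undetected probes.

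In the first drought, the order of the 6 changes was the chromosome 3 and chromosome 19 PsbP transcripts, ATPC1, the chromosome 7 and chromosome 20 PetM transcripts, and the CAAD transcript. No neighbours in this order differed by more than the larger of their 2 SEs. The median change was -2.52, against a median of 0.05 over all 55087 transcripts. At DR2 against WT2, the median of the 6 was -6.77 and that of all transcripts 0.00, with 2 of the 6 values on undetected probes. Since the choice of the transcripts used these falls, their place in the lowest 3.35% (DR1 against WT1) and 2.54% (DR2 against DR1) of all transcripts is a description.

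**Figure D3:**
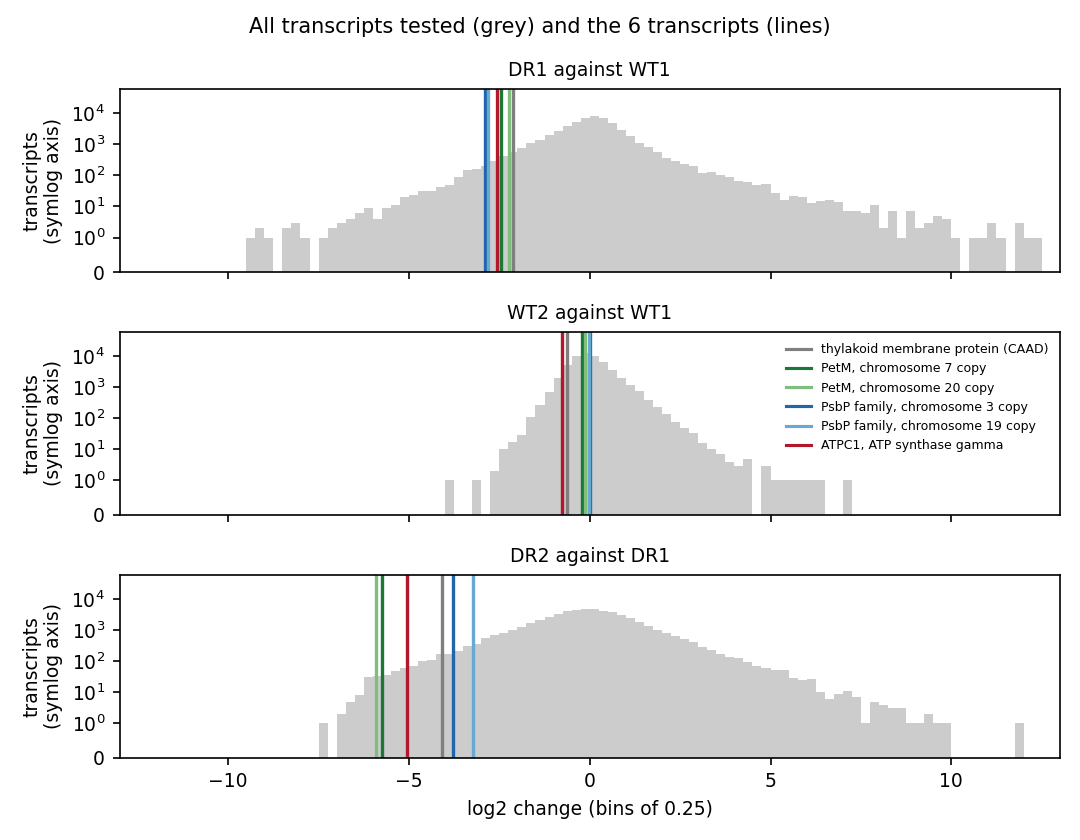
Number of transcripts per log2 change bin (symlog axis) over all 55087 transcripts tested, in grey, with the 6 transcripts as lines. The 6 lie on the low side at DR1 against WT1 and DR2 against DR1, the comparisons that chose them, and between -0.77 and 0.01 at WT2 against WT1.

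The size of the second fall depended on how the background was handled for the dim transcripts. With a background offset of 50, the change at DR2 against WT2 was -5.19 for Glyma.03G230300-1, -4.80 for Glyma.19G227400-1 and -5.21 for Glyma.13G204800-2. With the scanner's processed signal it was -7.70, -7.02 and -8.06 for the same 3 transcripts. No setting tried, from the authors' own table to leaving out each array, turned the direction of any of the 6 at DR1 against WT1, DR2 against WT2 or DR2 against DR1. The 6 were chosen for falls on the WT1, DR1 and DR2 arrays, so the kept direction is a description.

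Recovery after 1 day of water was the comparison kept for a test, since WT2 arrays took no part in the choice of the transcripts, while the WT1 arrays did. That choice favoured high WT1 values, which can push WT2 against WT1 downward. The p values and intervals of this comparison are not free of it. Of the 6 transcripts, 0 were called at WT2 against WT1, where 0.049% of all transcripts were called lower and 0.387% higher. The log2 changes were 0.01 (95% interval -0.62 to 0.64, adjusted p = 0.990) for Glyma.03G230300-1 and -0.01 (-0.55 to 0.54, adjusted p = 0.990) for Glyma.19G227400-1. They were -0.20 (-0.92 to 0.51, adjusted p = 0.774) for Glyma.07G163600-1 and -0.12 (-0.80 to 0.55, adjusted p = 0.859) for Glyma.20G008600-1. The intervals of these 4 thus reach a fall of at most 0.92 on the log2 scale, which is under 4-fold.

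The ATPC1 and CAAD transcripts lay lower. Glyma.13G204800-2 changed by -0.77 (95% interval -1.44 to -0.10, adjusted p = 0.205) and Glyma.07G019400-1 by -0.62 (-1.15 to -0.09, adjusted p = 0.197) in WT2 leaves against WT1 leaves. WT2 leaves thus had 58.8% of the WT1 level of the ATPC1 transcript and 65.2% of that of the CAAD transcript. Both had an unadjusted p below 0.05, at 0.0298 and 0.0272, and neither passed the limma adjustment over all transcripts. Their WT2 and WT1 arrays did not overlap, as was so on the lower side for 27.1% of all transcripts, so 2 of 6 is near the background. Over 15 alternatives the adjusted p ran between 0.0518 and 0.569 for Glyma.13G204800-2 and between 0.0969 and 0.491 for Glyma.07G019400-1. Measured against DR1, re-watered leaves had 2.84-fold to 7.51-fold more of the 6 transcripts, and on the log2 scale they had regained 70.2% of the first fall in ATPC1, 71.0% in CAAD, 91.9% and 94.4% in the PetM pair and 99.7% and 100% in the PsbP pair. Whether this recovery differs between transcripts was not tested.

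The probes of each transcript moved together. All 16 probes of the 6 transcripts were over 4-fold lower at DR1 against WT1 and again at DR2 against DR1, as measured. The transcripts were chosen for falls in these 2 comparisons, so this count describes that choice and is no test. The share over all probes was not counted. All 16 were well above background on every WT1, DR1 and WT2 array. At DR2, 9 probes were well above background on both arrays, 2 on 1 array and 5 on none. The 6 probes of Glyma.07G163600-1 ranged between -2.78 and -2.23 at DR1 against WT1 and between -5.94 and -5.39 at DR2 against DR1. The 3 of Glyma.03G230300-1 ranged between -3.01 and -2.77 and between -4.26 and -3.30 in the same comparisons, the second as measured, with 2 of the 3 not well above background at DR2.

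**Figure D4:**
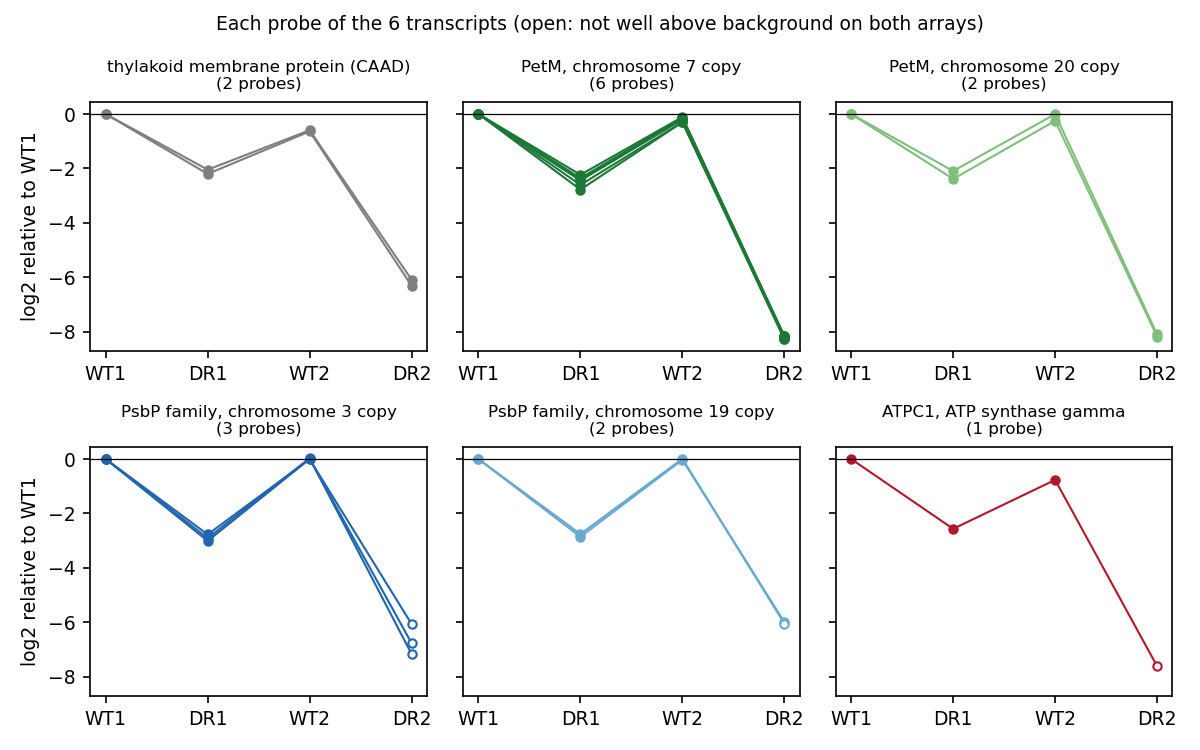
Mean log2 intensity of each probe relative to its WT1 mean, by stage, in 1 panel per transcript; open points are probes not well above background on both arrays of the stage. The probes of a transcript lie close together at every stage, and all 6 probes of the PsbP family and ATPC1 transcripts are open at DR2.

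Other array entries of the same loci, which report splice forms or a unique exon (UE), fell with them in part. ATPC1 had a second splice form, Glyma.13G204800-1, which fell by less than the 4-fold limit at the first drought. It read 4739 and 5949 in DR1 leaves, against 14509 and 18218 in WT1 leaves. That is a change of -1.61 (limma adjusted p = 0.00137), or 3.06-fold lower. In the second drought it read 118 and 129 in DR2 leaves, against 12816 and 10974 in WT2 leaves, and was called at -6.59 (adjusted p = 4.19e-07). The unique-exon probe of the chromosome 7 PetM locus, Glyma.07G163600-1_UE, changed by -2.89 at DR1 against WT1 (adjusted p = 0.000369) and was called. It was not well above background on either DR2 array, where it measured 25.3 and 34.4, against 1398 and 2447 in WT2 leaves, so the size of its second fall is open to the background correction.

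Most of the remaining entries of these loci were dim. The second PetM splice form of chromosome 7, Glyma.07G163600-2, was well above background on the 4 watered arrays alone, and the unique-exon probe of chromosome 20, Glyma.20G008600-1_UE, likewise. Glyma.20G008600-2 stayed at background throughout and was not tested. For Glyma.07G019400-3, 2 of 3 probes were well above background on at most 1 array, and the mean over all 3 changed by -1.10 at DR1 against WT1 and -1.81 at DR2 against WT2, both under 4-fold. Its other probe was well above background on all 8 arrays and changed by -2.15 and -3.60 in the same comparisons, both over 4-fold. The unique-exon entry Glyma.13G204800-1_UE changed by -0.28 (adjusted p = 0.485) and -1.17 (adjusted p = 0.00484), and its 2 probes differed in direction at DR1.

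The nuclear genes of the same 3 Pfam families, PetM, PsbP and CAAD, named in the study's tables gave 14 further entries, and no further entry of the ATP synthase gamma family was named there. These 14 entries came from 12 loci, so some loci count more than once below. Of the 14, 12 were themselves listed by the study as drought-repressed, so their counts at the first drought restate that choice. At DR1 against WT1, 12 of 14 were called lower and 0 higher, with changes between -4.17 and -1.25 (3.85% and 3.62% over all transcripts). The largest fall was in the PetM transcript Glyma.06G035900-1, and the smallest in the PsbP transcript Glyma.08G304200-1, which read 71278 and 78657 in DR1 leaves, against 176226 and 181015 in WT1 leaves.

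At DR2 against WT2, all 14 were called lower (15.2% over all transcripts), and at DR2 against DR1, 13 of 14 (8.45% over all transcripts). With 12 of the 14 listed by the study for a fall in the first drought, these counts are a description too. They are no test of the families. The 12 that were detected on a DR2 array changed by -7.41 to -4.56 at DR2 against WT2. The other 2 were the CAAD transcript Glyma.07G060700-2 and the PsbP unique-exon entry Glyma.19G126700-1_UE. By the bound at the background offset of 0, they were at least 11.6-fold and at least 41.1-fold lower. The exception at DR2 against DR1 was Glyma.07G060700-2, whose measured change was -1.34 (adjusted p = 0.0106) and whose fall was at least 2.05-fold by that bound. The 2 entries that the study did not list as drought-repressed, Glyma.08G304200-1 and the CAAD transcript Glyma.16G029300-1, changed by -4.72 and -4.44 at DR2 against DR1 and were called. At DR2 against WT1, and over the entries detected on a DR2 array, the PetM entries ranged between -8.11 (Glyma.06G035900-1) and -6.35 (Glyma.04G035900-1), the PsbP entries between -7.14 (Glyma.18G286500-1) and -4.95 (Glyma.02G094900-1), and the CAAD entries between -7.99 (Glyma.16G017600-1) and -5.60 (Glyma.16G029300-2, detected on 1 DR2 array). The smallest measured value of the CAAD family was that of the undetected Glyma.07G060700-2, which was at least 19.4-fold lower by that bound. At WT2 against WT1, 0 of 14 were called by limma (0.049% lower and 0.387% higher over all transcripts). An unadjusted limma p below 0.05 was found for 5, and all 14 estimates were below 0. The shares of all transcripts at those limits were not counted, and the median over all transcripts was -0.06. As with the 6, the listing of 12 of the 14 favoured high WT1 values, so these counts are a description.

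The plastid genome encodes the partners of these proteins, and its 32 entries for photosystem I, photosystem II, cytochrome b6f and ATP synthase subunits took no part in the choice of the 6 transcripts. At DR1 against WT1, 0 of 32 were called lower or higher by limma (3.85% and 3.62% over all transcripts). Of the 32, 8 were lower with a limma adjusted p below 0.05 but under 4-fold. A lower value with an unadjusted p below 0.05 was found for 13. How many of all transcripts met either limit on p alone was not counted, so the 8 and the 13 cannot be set against a background. The median change of the 32 was -0.40. With each array scaled to its 75th percentile, and no quantile step, that median was -0.92 and all 32 were below 0 rather than 22, still with 0 called. At DR2 against WT2, 11 of 32 were called lower (34.4%, against 15.2% of all transcripts), and the median was -1.40. Without the 4-fold limit, 28 were lower and 1 higher at a limma adjusted p below 0.05. The share of all transcripts at that limit alone was not counted. A larger fall in the second drought than in the first was called for 7 of 32 (21.9%, against 10.4% of all transcripts), but for 1 with each array scaled to its 75th percentile.

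Within the cytochrome b6f complex, petA, which encodes cytochrome f, changed by -2.98 (adjusted p = 6.62e-06) at DR2 against WT2, petG by -2.40 and petL by -2.35, and these 3 were called. In contrast, petD, which encodes subunit IV, changed by 0.00 (SE 0.20, adjusted p = 0.988), with intensities of 202518 and 186412 in DR2 leaves, against 195758 and 191849 in WT2 leaves. The PetM transcripts of the same complex changed by -8.02 each.

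Within the ATP synthase, atpB, which encodes the beta subunit, changed by -3.27 (adjusted p = 3.51e-06), atpF by -2.56 and atpH by -2.55, and these 3 of 6 were called; atpA, atpE and atpI changed by -1.38, -1.28 and -1.33. In the same comparison ATPC1 was at least 96.5-fold lower by the bound at the background offset of 0, and atpB was 9.62-fold lower. Among photosystem genes, the lowest value was that of psbM, at -4.28, and psbA, which encodes the D1 protein of the photosystem II core, was at 0.83 (adjusted p = 0.0126, under 4-fold). The labelling kit primes cDNA from poly(A) tails, which most plastid transcripts lack, so levels were not compared between plastid and nuclear transcripts. The same limit holds for the sizes of their falls, which are given side by side without a ranking.

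**Figure D5:**
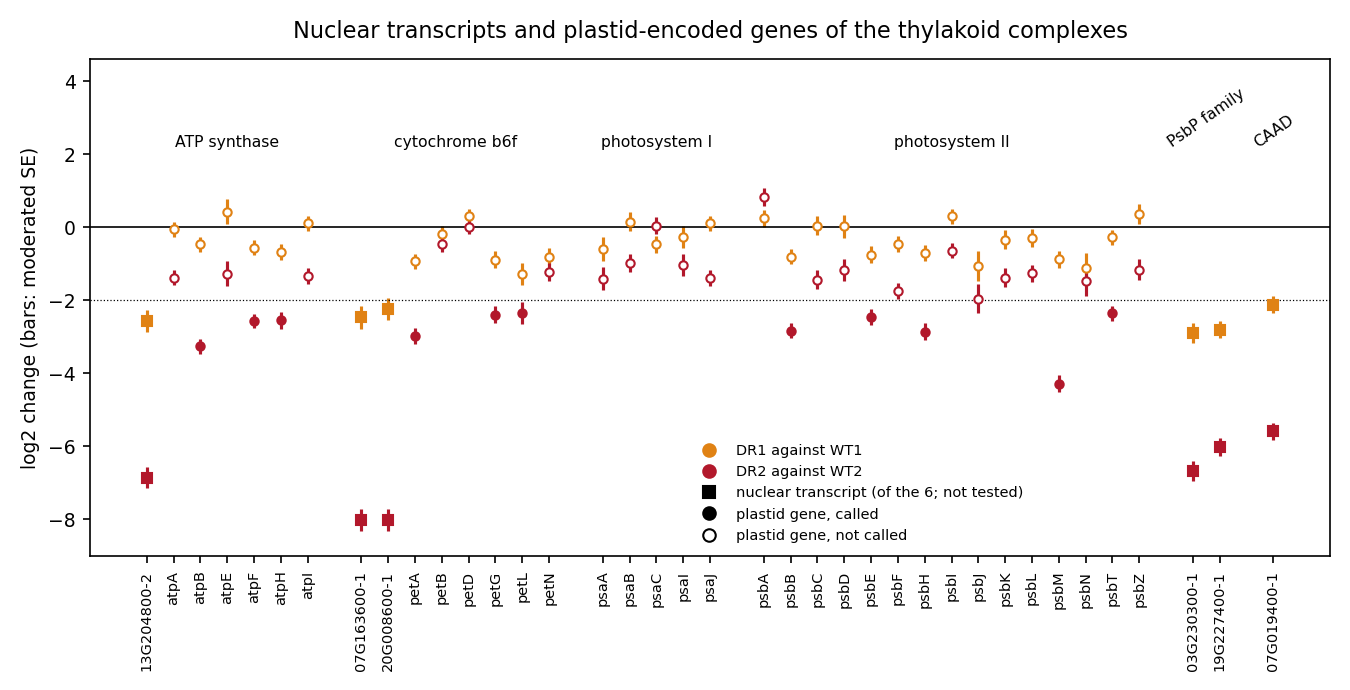
Log2 change of the 6 nuclear transcripts (squares) and of the 32 plastid-encoded genes (circles; filled where called) at DR1 against WT1 and at DR2 against WT2, by complex; bars are the moderated SE. The plastid genes lie between -1.28 and 0.42 in the first drought and between -4.28 and 0.83 in the second, while the squares lie between -2.12 and -2.90 and between -5.59 and -8.02, as measured; Glyma.19G227400-1 and Glyma.13G204800-2 were not detected at DR2.

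Of the 5 mitochondrial atp entries tested, 0 were called lower and 1 higher at DR2 against WT2 (15.2% and 13.1% over all transcripts). The 1 called was atp9, at 4.74 (limma adjusted p = 0.000121), and the other 4 ranged between 0.06 and 0.82. The DR2 arrays of atp9 lay far apart, at 119005 and 27308, against 2556 and 1774 in WT2 leaves.

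The transcripts of other loci whose profile over the 8 arrays was nearest to the mean profile of the 6 were Glyma.01G040200-1, with a glutathione S-transferase N-terminal domain, Glyma.02G271400-1, Glyma.03G142800-1, with a rhodanese domain, Glyma.14G019700-1 and Glyma.03G015000-1, with a domain of unknown function. Their root mean square distances were between 0.13 and 0.19 on the log2 scale, less than the distances of the 6 themselves from their mean, which were between 0.29 and 0.53. The nearest, Glyma.01G040200-1, read 14625 and 15127 in WT1 leaves, 2539 and 2844 in DR1 leaves, 12568 and 17125 in WT2 leaves, and 122 and 117 in DR2 leaves. All 5 are listed by the study as drought-repressed.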

How the data were processed

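Cy3-labelled cRNA of 8 leaf samples was hybridised to custom Agilent arrays with 60-nt probes at the 3' end of each transcript. The deposited scanner files hold spot intensity, background intensity and quality flags (other values) from Feature Extraction 11.5.1.1, per the file headers; the authors' processed table holds normalized intensity per transcript, made with limma (version not given in the sources used here), and served as an alternative. Genome build and alignment were not used here.

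Median signal and background were corrected by normexp (offset 0) and quantile normalized over 178031 spots; control and outlier spots were dropped. The log2 values of 173177 probes were averaged per transcript, 55087 of 77681 transcripts were tested, those for which 1 probe or more exceeded background on each array of at least 1 stage, and limma 3.58.1 (R 4.3.3) was fitted to all 8 arrays. A call required over 4-fold and a Benjamini-Hochberg adjusted P below 0.05; the scripts were tested on simulated data. The number of arrays limits precision.

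The 6 transcripts, the lists and the tests were chosen with earlier results of these data known. Named genes were the 6 transcripts, other entries of their loci and families, the extremes of each family at DR2 against WT1 (also over entries detected at DR2, a limit set after their values were seen), and the 5 nearest profiles. Family membership came from Pfam names in the study's partial tables; plastid genes from RefSeq (171 of 171 organelle entries matched). No RefSeq description covered nuclear entries, so the planned list by description and the promoter motifs were not run. The labels do not tie a replicate number to shared plants, and deviations of same-numbered arrays correlated between -0.31 and 0.29. Arrays were not paired, although these correlations cannot show that pairing is absent.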

Additional observations from a re-analysis of the deposited data

Results flagged for a closer look

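The drought response in the second round, DR2 against WT2, was set against that in the first, DR1 against WT1, for the 32 plastid-encoded genes, by a limma test of the difference itself. Of these, 7 differed by over 4-fold with an adjusted p below 0.05 (21.9%, against 10.4% of all transcripts lower). The log2 difference was -3.41 for psbM (adjusted p = 0.000246), -2.80 for atpB (0.000303), -2.16 for psbH (0.00148), -2.08 for psbT (0.000986), -2.04 for petA (0.00122), -2.03 for psbB (0.0013) and -2.01 for atpF (0.0011). Under either scaling to the 75th percentile, 1 of the 32 was called, which was psbM. The same difference was between -5.78 and -3.46 in the 4 nuclear transcripts detected on a DR2 array, 1 of them on 1 array alone; it is given without a test, since the choice of the transcripts used 3 of the 4 stages it is made of.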

How the results depend on the processing

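Alternatives moved sizes more than directions. At WT2 against WT1, none of the 6 transcripts was called under any alternative, and 4 estimates near 0 changed sign: Glyma.03G230300-1 was at -0.012 under 75th percentile scaling and -0.022 with the processed signal, and with 1 array left out it ranged between -0.12 and 0.14, Glyma.07G163600-1 between -0.50 and 0.094, Glyma.19G227400-1 between -0.16 and 0.15 and Glyma.20G008600-1 between -0.38 and 0.13 (of these, the PetM pair was above 0 without WT2 replicate 1, Glyma.19G227400-1 without WT2 replicate 1 or WT1 replicate 2, and Glyma.03G230300-1 below 0 without WT1 replicate 1 or WT2 replicate 2). The median of the 6 at WT2 against WT1 was -0.39 under both 75th percentile scalings, and between -0.44 and 0.11 with 1 array left out, above 0 without WT2 replicate 1. At WT2 against DR1 it was 2.47 under both, and between 1.92 and 2.46 with 1 array left out.

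For the drought comparisons the median of the 6 kept its direction, which their choice for falls in drought favours. At DR1 against WT1 it was -2.81 under 75th percentile scaling and -2.85 with the processed signal. With a background offset of 50 and with the processed signal it was -3.72 and -5.35 at DR2 against DR1, -5.34 and -7.88 at DR2 against WT2, -6.02 and -8.24 at DR2 against WT1, and -3.03 and -5.12 for the difference between the drought responses. Both 75th percentile scalings called 2 plastid genes lower at DR2 against DR1 rather than 9, and 1 rather than 7 for the difference between the drought responses; the cause was not tested. Scaling after normexp to the 75th percentile placed the median of all transcripts at 0.12 at DR2 against DR1, and at -0.11 at DR1 against WT1. The plastid alternatives were chosen after seeing the data. The other counts for the families and plastid genes stayed within 1.5 times; with 1 array left out, 9 to 12 family entries were called at DR1 against WT1, 9 to 11 plastid genes at DR2 against DR1 and 10 to 12 at DR2 against WT2.

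Whether the replicate numbers pair the arrays cannot be settled from the labels or from 2 arrays per stage. A replicate block changed no call of the 6 at WT2 against WT1 (Glyma.13G204800-2 at -0.77, adjusted p = 0.262; Glyma.07G019400-1 at -0.62, adjusted p = 0.243) and moved the calls over all transcripts there to 25 lower and 211 higher, against 27 and 213 without it; with the WT2 numbers crossed, since WT2 and WT1 deviations correlated at -0.31, it gave 25 and 212. The slide as a block could not be fitted for WT2 against WT1, which lies between slides. At DR2, signal over background is the limit: 5 of 16 probes were not well above it on either array.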
